A study of Homo sapiens with 2 samples.

Results

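Cell cycle regulators are the genes whose products decide when a cell copies its DNA and when it divides. The set described here holds 53 genes, fixed by name: 9 cyclins, 5 cyclin-dependent kinases (CDKs), 7 CDK inhibitors, 4 genes that set the phosphorylation of the CDKs, 11 E2F factors and pocket proteins, 8 replication licensing genes, 7 mitotic genes, and FOXM1 and MDM2. All 53 were among the 19881 protein-coding genes of chromosomes 1 to 22, X and Y with a recorded GRCh38 position. OTX2 binding was measured by ChIP-Seq, in which protein is crosslinked to DNA and the fragments bound by an antibody are sequenced, with sheared chromatin without antibody as input. The cells were untreated control tumorspheres of D283, an established medulloblastoma cell line, grown with EGF and bFGF in low-attachment plates and expressing OTX2. Peaks came from 1 library of each kind. Replicate error is therefore unknown, and the intervals below cover counting error only. The ChIP library held 61259377 fragments after removal of duplicates and the input library 22521186.

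In the cell cycle, cyclins switch on their partner CDKs, and the inhibitors block them. CDKs of the first gap phase phosphorylate the pocket proteins RB1, RBL1 and RBL2, which releases E2F factors to transcribe genes of DNA replication, while CDK1 with B-type cyclins drives mitosis. OTX2 is a homeodomain transcription factor of the developing brain that is often highly expressed in group 3 and group 4 medulloblastoma. Binding near a gene says nothing of whether that gene is transcribed, and expression was not part of these 2 libraries.

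OTX2 peaks lay near the transcription start sites (TSS) of most cell cycle regulators. The window around the TSS reached 5 kb upstream and 2 kb downstream, with the 5′ end of the GENCODE gene record taken as the start. A peak overlapped it at 45 of the 53 members (84.9%). Among all protein-coding genes the share was 57.2%, and among the 19828 that are not members it was 57.1%. Over the gene record extended by 20 kb on each side, 52 of 53 members (98.1%) held a peak, against 88.1% of all protein-coding genes, so this wider region left little room to differ. Within the gene record alone, 44 members (83.0%) and 69.4% of the other genes held one. Members also held more peaks per gene near the TSS. At least 2 peaks overlapped the window at 25 members (47.2%) and at 23.5% of the other genes, and the mean number was 1.57 against 0.892. These values include genes without a peak. Among genes with a peak, 25 of 45 members and 4651 of 11322 other genes held at least 2. At the 61 other cell cycle genes described below, 20 (32.8%) held at least 2, and the mean was 1.3. The list was chosen with results of these data known, so these shares are descriptions without a test.

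The peaks near the members were not tall as a group. The height of a peak is the number of ChIP fragments over its summit, read back from the deposited pileup, in which each fragment added 0.735. Over the 45 members with a peak, the tallest peak in the window had a median height of 60 fragments (quartiles 40 and 84, range 18 to 215), and for the other genes with a peak the median was 54 (quartiles 37 and 87, range 15 to 442). Median fold enrichment over the local input was 5.71 at the members and 6.28 at the others. Values of local input below are in units of the pileup, not in fragments, so a height divided by them is not the fold. A peak of at least 100 fragments lay in the window of 9 of 53 members (17.0%) and of 11.2% of all protein-coding genes. Counted only over genes with a peak in the window, 9 of 45 members and 2210 of 11322 other genes reached 100 fragments. The last member inside this limit was FOXM1 with 116 fragments and the first outside it was CDC20 with 99. Summits of the tallest peaks lay upstream of the TSS at 36 of 45 members (80%) and at 64.8% of the other genes with a peak. At the 61 other cell cycle genes described below, the summit lay upstream at 32 of 53 with a peak (60.4%). The window itself reaches further upstream than downstream. Summits lay within 1 kb of the TSS at 31 members (68.9%), against 61.0% of the others and 79.2% of the other cell cycle genes with a peak.

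**Figure D1:**
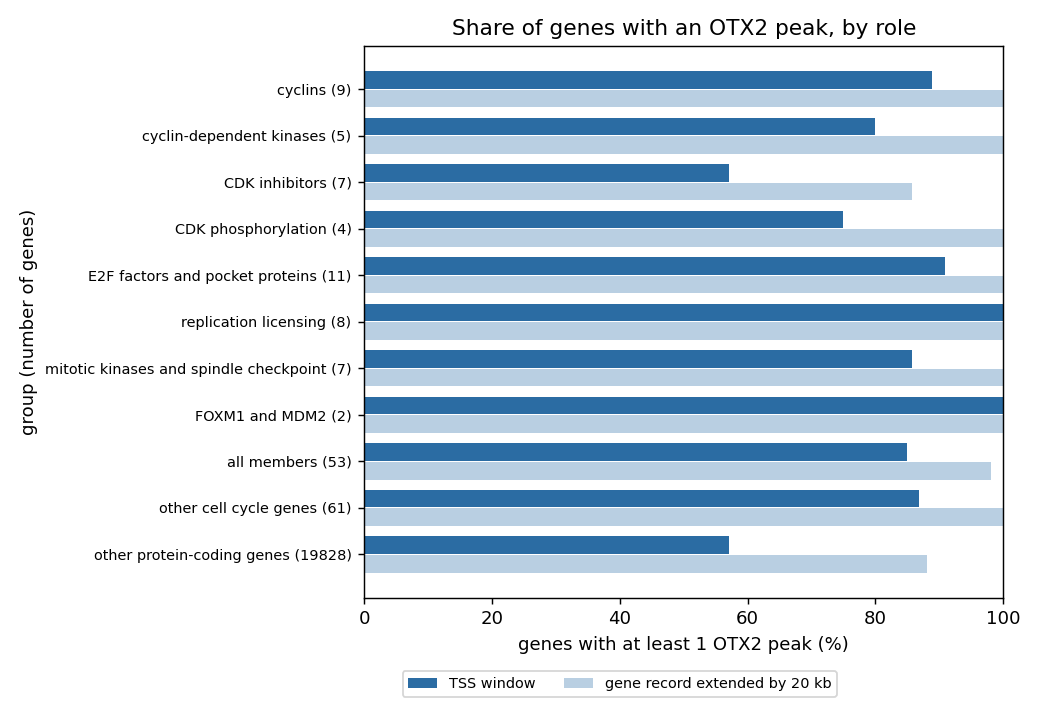
Bars give the percent of genes with at least 1 OTX2 peak in the TSS window (dark) and in the gene record extended by 20 kb (light), for each role, all 53 members, 61 other cell cycle genes and the other protein-coding genes, with the number of genes in brackets. From the record start, CDK inhibitors stand at 57.1% in the window, next to the 57.2% of all protein-coding genes, and at the canonical start, not drawn, at 85.7%; all 8 licensing genes have a peak there in both cases.

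Promoters are shown for the tallest members whose summit lies inside the tabled promoter, since these are the sequences directly under OTX2 peaks. The RefSeq table (GRCh38.p14) held 41 of the 53 members, and the tallest summit lay inside the tabled promoter of 16 of them. The 6 tallest of these were CDC6, MCM6, PLK1, CCNB1, RBL1 and BUB1B, and PLK1 is not shown because annotated exons of a longer transcript cover its stretch. Each line below runs 5′ to 3′ toward the TSS and is limited to bases under no annotated exon. Capitals mark CCAAT, the word bound by NF-Y, and TTTGAA or TTCGAA, the core of the cell cycle genes homology region (CHR), on either strand. The CDC6 stretch is chr17:40287629-40287878 on the plus strand, with the summit 185 bp upstream of the RefSeq TSS, and it holds 3 CCAAT words, beginning 126, 103 and 50 bp upstream. The MCM6 stretch is chr2:135876444-135876693 on the minus strand, with the summit 155 bp upstream, a TTCGAA at 246 bp and CCAAT at 100 and 58 bp. The CCNB1 stretch is chr5:69166900-69167134 on the plus strand, with the summit 55 bp upstream and CCAAT at 87 and 55 bp. The RBL1 stretch is chr20:37095998-37096247 on the minus strand, with the summit 113 bp upstream, and the BUB1B stretch is chr15:40160819-40161022 on the plus strand, with the summit 160 bp upstream. Neither of these printed stretches holds a searched word. For BUB1B the longer stretch counted in the next paragraph, which reaches beyond the printed bases, does hold a CHR word.
CDC6: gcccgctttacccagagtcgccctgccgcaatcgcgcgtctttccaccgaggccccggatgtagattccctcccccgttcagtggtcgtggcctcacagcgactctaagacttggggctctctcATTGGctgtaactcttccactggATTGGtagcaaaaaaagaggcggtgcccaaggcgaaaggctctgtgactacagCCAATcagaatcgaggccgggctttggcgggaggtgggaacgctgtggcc
MCM6: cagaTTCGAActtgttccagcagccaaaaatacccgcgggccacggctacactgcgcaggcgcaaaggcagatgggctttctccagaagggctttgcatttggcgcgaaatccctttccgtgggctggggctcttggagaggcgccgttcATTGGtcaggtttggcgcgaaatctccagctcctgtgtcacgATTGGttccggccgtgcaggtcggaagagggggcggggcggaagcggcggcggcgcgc
CCNB1: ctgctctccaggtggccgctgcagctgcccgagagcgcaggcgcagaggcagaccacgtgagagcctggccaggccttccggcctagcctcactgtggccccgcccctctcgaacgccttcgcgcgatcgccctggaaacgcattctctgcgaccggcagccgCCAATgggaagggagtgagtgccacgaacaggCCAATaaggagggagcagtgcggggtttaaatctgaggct
RBL1: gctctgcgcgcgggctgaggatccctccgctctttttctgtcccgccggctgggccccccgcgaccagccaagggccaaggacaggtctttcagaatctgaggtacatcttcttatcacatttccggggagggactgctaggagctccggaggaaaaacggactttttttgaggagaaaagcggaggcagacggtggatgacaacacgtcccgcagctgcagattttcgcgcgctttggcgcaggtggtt
BUB1B: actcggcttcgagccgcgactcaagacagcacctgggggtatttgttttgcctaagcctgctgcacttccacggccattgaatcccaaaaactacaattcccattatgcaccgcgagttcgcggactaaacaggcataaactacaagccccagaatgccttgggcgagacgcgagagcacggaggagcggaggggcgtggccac

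Word counts over all members used the stretch from 250 upstream to 50 downstream of the TSS of the same gene records in GRCh37, where all 53 members had sequence. CCAAT occurred in 28 members (52.8%) and in 35.8% of the other promoters. The CHR words TTTGAA and TTCGAA occurred in 17 members (32.1%) and in 14.7% of the others. At the 61 other cell cycle genes described below the share was 27.9%. The words were found in all 7 genes of the mitotic kinase and spindle checkpoint role. They also stood in 1 of 9 cyclins, 1 of 5 CDKs, 1 of 7 inhibitors and 1 of 4 CDK phosphorylation genes. The other counts were 3 of 11 E2F factors and pocket proteins, 2 of 8 licensing genes, and 1 of 2 for FOXM1 and MDM2. CCNB1 and CDC25C, which also act in mitosis, held none. At PLK1 the window is that of the record start, which lies 1233 bp from the start of the canonical transcript. The E2F word GCGGGAA occurred in 11 members (20.8%) and in 7.64% of the others. The OTX2 words TAATCC and TAATCT were found in 3 member promoters (5.66%), those of E2F5, RBL2 and MCM7, and in 13.2% of the other promoters. Among all protein-coding genes they stood in 13.2% of promoters with a peak in the TSS window and in 13.3% of those without. That window is far wider than the searched stretch, so a peak in it need not lie over the searched bases. These shares therefore cannot show whether the words lie under OTX2 peaks. A matching word is a description of the sequence and no evidence of binding.

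Cyclins are the regulatory partners that switch on the CDKs. OTX2 peaks overlapped the window of 8 of 9, with a median height of 68.5 fragments for the tallest. CCNA2, the S-phase and early mitotic cyclin, had the tallest peak of all members in the window of the record start. With other starts CDK4 (254 fragments at the canonical, any transcript or RefSeq start) and CCND3 (256 at any transcript start) stood above it. The main CCNA2 peak reached 215 fragments (exact Poisson 95% interval 187 to 246) and a fold enrichment of 17.7, with the summit 284 bp upstream of the TSS, at chr4:121823859-121824506. A second CCNA2 peak, 1270 bp upstream, reached 37 fragments.

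The D-type cyclins answer to growth signals. CCND3 held a peak of 137 fragments (115 to 162; fold 17.0), but its summit lay 5157 bp upstream, just outside the window that the peak overlaps, and 5001 bp from the nearest TSS, that of TAF8. The next CCND3 peak, 693 bp upstream, had 63 fragments. The canonical CCND3 start lies 108549 bp from the record start, and the tallest peak in its window had 62 fragments. With any transcript start counted, the tallest CCND3 peak had 256. CCND2 had 134 fragments (112 to 159; fold 17.5) at 32 bp from the record start, which lies 3991 bp from the canonical start, and a CCND2 peak of 101 fragments stood 963 bp upstream of that canonical start. CCND1 had a single peak of 31 fragments, 2123 bp upstream. The mitotic cyclins CCNB1 and CCNB2 had peaks of 71 and 39 fragments, 40 and 77 bp upstream. CCNA1, the germ-line A-type cyclin, had 66 fragments at 1359 bp upstream.

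E-type cyclins drive entry into S phase. CCNE1 was the cyclin without a peak in the window, its nearest peak ending 5.59 kb from the TSS. Upstream of it lay 5 peaks, 2 of them tall: 169 fragments (fold 20.9) at 7920 bp and 171 fragments (fold 24.3) at 17598 bp. CCNE2 had 3 peaks in the window, the tallest with 58 fragments 117 bp upstream but a fold enrichment of only 2.55, since the local input there was 16.1, against a floor of 3.98 over the whole list.

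CDKs are the kinases that the cyclins activate. A peak overlapped the window of 4 of 5, with a median height of 48.5 fragments. CDK4, the partner of the D-type cyclins, had 83 fragments (66.1 to 103; fold 7.75) at 926 bp upstream of the record start. The canonical CDK4 start lies 3703 bp from there, and 778 bp upstream of it stood a peak of 254 fragments (224 to 287) with a fold enrichment of 36.0. That summit lies 2015 bp from the TSS of MARCHF9. CDK1, the mitotic kinase, had 53 fragments (39.7 to 69.3) at 49 bp from the TSS. CDK7, which activates other CDKs, had 44 fragments at 116 bp. CDK6, the second partner of the D-type cyclins, had the lowest peak of all members with one, 18 fragments (10.7 to 28.4; fold 2.85) at 2500 bp upstream. CDK2, the partner of cyclins E and A, had none in the window. Its nearest peak lay 6.73 kb away with 32 fragments, and one of 70 fragments lay downstream of the gene.

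CDK inhibitors restrain the kinases and hold cells out of the cycle. From the record start, 4 of 7 held a peak in the window (57.1%), a share next to that of all protein-coding genes, with a median height of 36 fragments. This was the lowest share and height of the roles, but not at the canonical start, where 6 of 7 held a peak with a median of 53.5 fragments, against 4 of 5 and 48.5 for the CDKs. CDKN2C had 55 fragments at 399 bp upstream, with a fold enrichment of 2.76 over a local input of 14.0, and the summit stood 79 bp from the TSS of FAF1 on the other strand. The canonical CDKN2C start lies 9500 bp from the record start, and 10 bp upstream of it stood a peak of 70 fragments (54.6 to 88.4) with a fold enrichment of 8.53. CDKN1A, a target of p53, had 40 fragments (28.6 to 54.5, fold 4.60) at 2086 bp downstream of the record start. This summit lies outside the window that the peak overlaps, and 168 bp upstream of the canonical start. With the summit required in the window of the record start, CDKN1A lost its peak and 3 of 7 inhibitors held one. CDKN2B had peaks of 32 and 22 fragments in its intron 1, and CDKN2D peaks of 27 and 24 fragments upstream.

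The other 3 inhibitors had no peak in the window of their record start. CDKN1C was the member with no peak in the extended record, and its nearest peak lay 182 kb away. At CDKN1B and CDKN2A the call depended on the start used. The CDKN1B record starts 31870 bp from the canonical start, and 5 peaks overlapped the window of the canonical start, the tallest with 67 fragments (51.9 to 85.1; fold 7.18) at 282 bp upstream. Over the extended CDKN1B record there were 17 peaks, the tallest with 245 fragments and a fold enrichment of 18.1. At CDKN2A, whose canonical start lies 20444 bp into the record, peaks of 76 fragments (2141 bp upstream of that start, fold 10.9) and 45 fragments (575 bp downstream, in intron 1) were found. Both remaining peaks near CDKN2A are those inside CDKN2B.

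CDC25 phosphatases remove the inhibitory phosphates that WEE1 places on the CDKs. Of these 4 genes, 3 held a peak in the window, with a median height of 157 fragments. At the canonical start all 4 held a peak and the median was 77.5, so the high median belongs to the record start. CDC25A, which acts at S-phase entry, had 174 fragments (149 to 202; fold 18.8) at 902 bp upstream and a second peak of 103 fragments (84.1 to 125) at 124 bp upstream, at chr3:48187989-48188780. Another tall CDC25A peak, with 171 fragments, lay in intron 6. CDC25C, a mitotic phosphatase, had 157 fragments (133 to 184; fold 23.3) at 618 bp downstream of a record start that lies 6551 bp from the canonical one, and the tallest peak around the canonical start had 72 fragments. WEE1 had 3 peaks of 79, 65 and 48 fragments, and outside the window one of 200 fragments at 7623 bp upstream. CDC25B had none in the window of its record start, with the nearest at 5.09 kb. Its canonical start, 9538 bp into the record, had a peak of 76 fragments (59.9 to 95.1; fold 11.4) at 159 bp upstream.

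**Figure D2:**
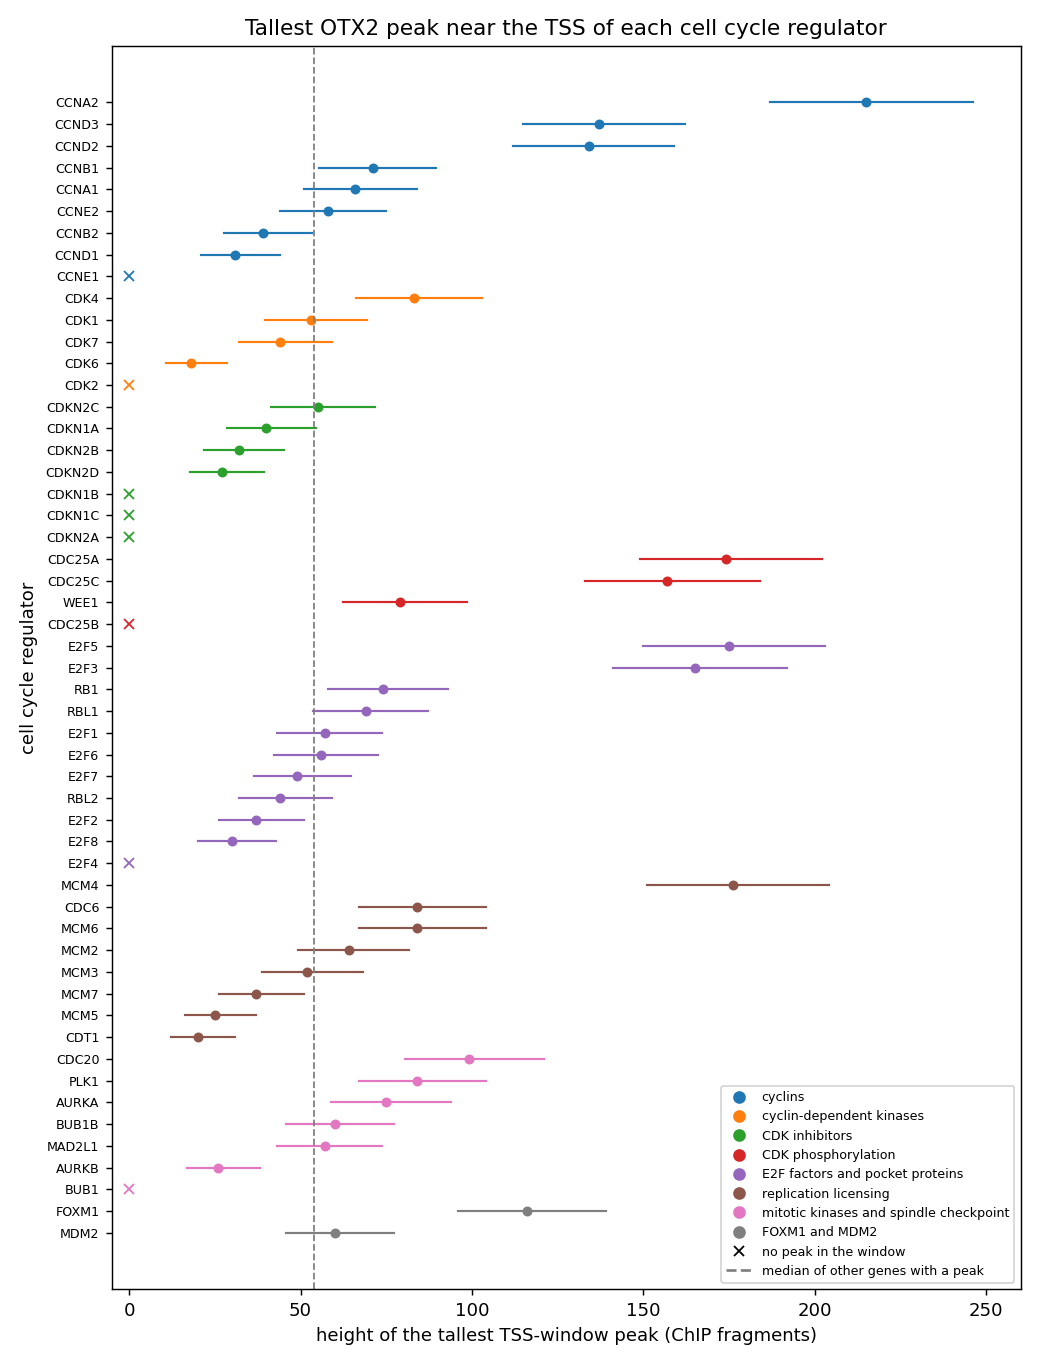
Each point is the height, in ChIP fragments, of the tallest OTX2 peak overlapping the TSS window of a member, with its exact Poisson 95% interval, and crosses mark the 8 members without a peak. The dashed line is the median of the other protein-coding genes with a peak, 54 fragments, and from the record start used here CCNA2 stands highest at 215.

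E2F factors carry out the transcription that the pocket proteins hold back. A peak overlapped the window of 10 of 11, with a median height of 56.5 fragments. E2F5, a repressive E2F, had 6 peaks in the window, the most of any member, the tallest with 175 fragments (150 to 203) at 4783 bp upstream. Its fold enrichment was 5.89, because the local input was 21.0. E2F3, an activating E2F, had 165 fragments (141 to 192) over a local input of 6, a fold enrichment of 17.5, at 918 bp upstream. The other activating E2Fs were lower, E2F1 with 57 fragments at 111 bp upstream and E2F2 with 37 at 2835 bp downstream, where the summit itself lies outside the window. The repressive E2F6, E2F7 and E2F8 had 56, 49 and 30 fragments. E2F4, also repressive, had none in the window and 1 peak of 20 fragments in the extended record, 8462 bp upstream.

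Among the pocket proteins, RB1 had 74 fragments at 1452 bp upstream and 45 at 57 bp upstream, RBL1 had 69 and 45, and RBL2 had 44. RB1 also had the tallest peak over the extended record of any member, 308 fragments with a fold enrichment of 32.1, but that summit lay 230672 bp from the RB1 TSS and 1160 bp from that of RCBTB2.

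Licensing factors load the MCM helicase onto replication origins before S phase. All 8 genes had a peak in the window and all 8 tallest summits lay upstream, with a median height of 58 fragments. MCM4 had 176 fragments (151 to 204; fold 21.7) at 3804 bp upstream, inside the neighbouring gene PRKDC, and 4 further peaks of 25 to 45 fragments. CDC6, which loads the helicase with CDT1, and MCM6 followed with 84 fragments each (67.0 to 104), at 185 and 155 bp upstream in the promoters printed above. The folds of those peaks were 5.71 over a local input of 10.0 at CDC6 and 9.83 over 5.38 at MCM6. The remaining helicase subunits MCM2, MCM3, MCM7 and MCM5 had 64, 52, 37 and 25 fragments. CDT1 had 20 fragments (12.2 to 30.9; fold 3.15).

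Mitotic kinases and spindle checkpoint proteins control chromosome segregation. A peak overlapped the window of 6 of 7, with a median height of 67.5 fragments. CDC20, the activator of the anaphase-promoting complex, had 99 fragments (80.5 to 121; fold 14.8) at 756 bp upstream. PLK1, a kinase of mitotic entry, had 84 fragments (67.0 to 104; fold 10.6) at 136 bp upstream of its canonical start. The kinase AURKA had 75 fragments, with the summit 141 bp from the TSS of CSTF1, and its relative AURKB had 26. The checkpoint genes BUB1B and MAD2L1 had 60 and 57 fragments, the latter 4562 bp upstream with a second MAD2L1 peak of 45 fragments at 51 bp. BUB1, a checkpoint kinase, had none in the window, the nearest lying 7.81 kb away, but held a peak of 142 fragments (fold 17.6) in intron 13.

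FOXM1 drives transcription of mitotic genes and MDM2 is the ubiquitin ligase of p53. Each had 3 peaks in the window. The tallest at FOXM1 had 116 fragments (95.9 to 139; fold 14.6) at 1439 bp upstream, nearest to the start of TULP3 at 1390 bp. MDM2 had 60 fragments (45.8 to 77.2; fold 4.51) at 445 bp upstream, and within the gene a taller one of 194 fragments (fold 28.6) in intron 8.

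**Figure D3:**
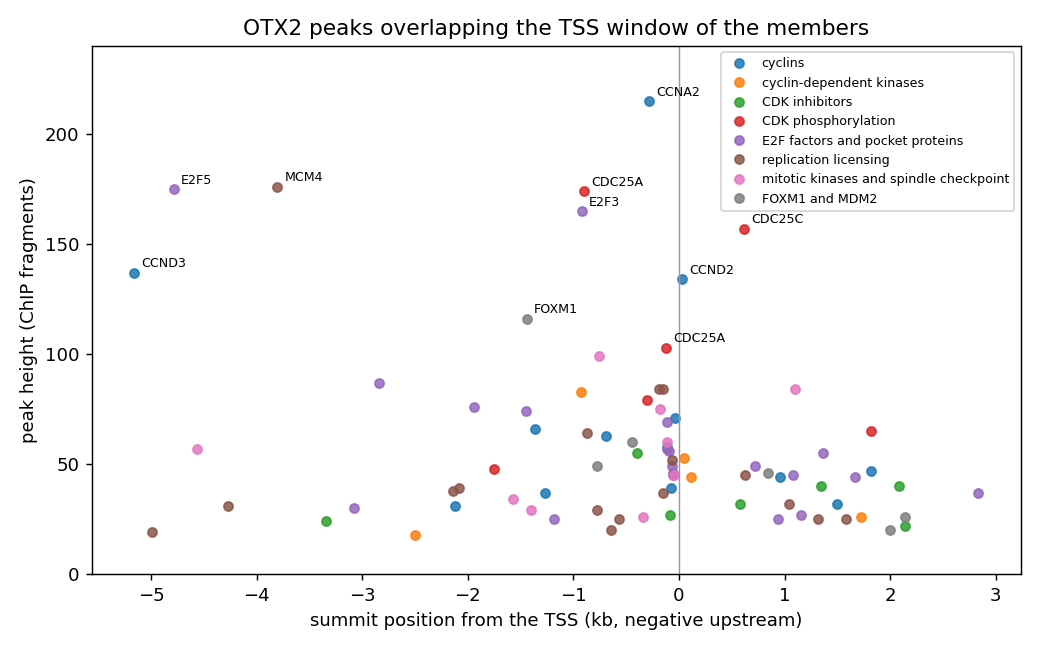
Each point is 1 of the 83 OTX2 peaks overlapping the TSS windows of the members, placed by the distance of its summit from the TSS (kb, negative upstream) and by its height in ChIP fragments, and coloured by role. The 10 peaks of at least 100 fragments, with their gene names, lie at 9 genes, and CDC25A has 2 of them.

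For 6 members the tallest summit in the window was nearer to the TSS of another gene than to their own. These were CDKN2C, AURKA, MCM2, FOXM1, CCND3 and MCM4, with FAF1, CSTF1, TPRA1, TULP3, TAF8 and PRKDC as the neighbours. Some of these summits can lie inside the neighbour, as that of MCM4 does in PRKDC. A peak placed in this way cannot be assigned to either gene from its position. Some margins were small, as at MCM4, where the summit lay 3804 bp from its own TSS and 3797 bp from that of PRKDC. The same count was not made for other genes, so it is no trait of the members.

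Over the extended records, 302 different peaks were found, 55 of them (18.2%) with at least 100 fragments, against 23.4% of all peaks in the list. The density was 76.5 peaks per Mb at the members and 57.8 at the other genes, while the median height of the tallest was 96 fragments at the members and 112 at the others. At the 61 other cell cycle genes described below the density was 66.6. Members were shorter than the other genes, so the fixed 20 kb on each side made up more of their sequence. Its effect on the density was not tested. For 36 members the extended record held a taller peak than the TSS window or the only one, and for 16 the tallest was the one in the window. The extended record contains the window and much sequence beside it. Other genes were not counted in this way, so these counts are no trait of the members. The tallest peaks after that of RB1 were those of E2F8 (264 fragments, downstream, 10589 bp from the TSS of CSRP3), CCND3 (256, fold 33.3, intron 2), CDK4 (254), MCM6 (251, fold 20.2, 6646 bp upstream), CDKN1B (245) and CCND2 (229, fold 32.1, intron 4). CDK6 had 113 fragments (fold 16.9) in intron 5, and CDK7 had 191 downstream of the gene over a local input of 12.

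**Figure D4:**
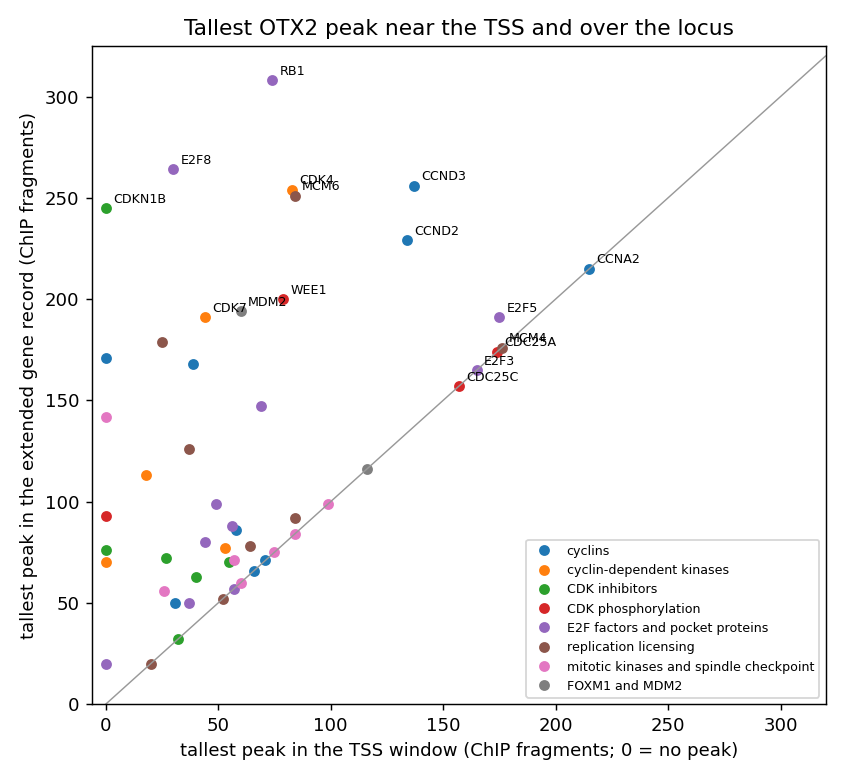
Each point is a member with a peak, placed by the height in ChIP fragments of the tallest peak in the TSS window (0 where there is none) and over the gene record extended by 20 kb, with a line where both are equal. RB1 reaches 308 fragments over the record and 74 in the window, while CCNA2 lies on the line at 215.

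Gene length and promoter GC content move with the share of genes that hold a peak. With genes split into 4 equal groups by length, other protein-coding genes held a TSS-window peak in 44.4%, 57.6%, 62.2% and 64.2% from the shortest to the longest, and members in 8 of 11, 22 of 25, 10 of 12 and 5 of 5. Members were shorter than the others, with a median length of 19.5 kb against 27.7 kb. With genes split into 4 groups by GC content, the others held a peak in 41.3%, 59.5%, 66.5% and 61.2% from the lowest to the highest, and members in 4 of 5, 12 of 13, 19 of 22 and 10 of 13. Median promoter GC content was 63.7% at the members and 60.3% at the others. The share among members was above that of the others in each group of either property, with few members in some. The CpG ratio, the number of CG pairs over that expected from the C and G content, had a median of 0.912 at the members and 0.698 at the others. Over all protein-coding genes it was 0.79 with a TSS-window peak and 0.427 without. Genes were not split by this ratio, so its part in the difference was not tested.

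**Figure D5:**
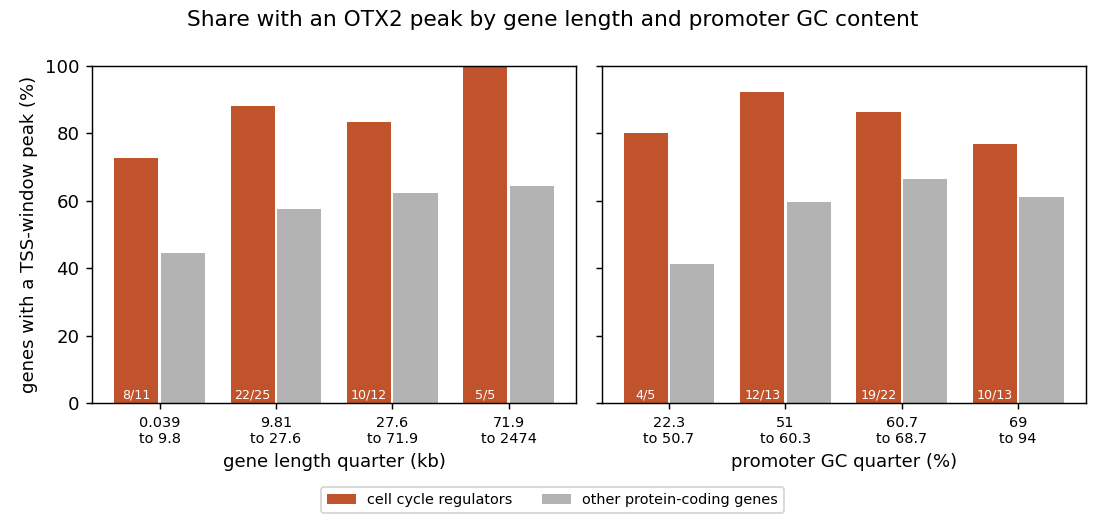
Bars give the percent of genes with a TSS-window peak for the cell cycle regulators and the other protein-coding genes, in 4 groups by gene length (left, kb) and 4 by promoter GC content (right, %), with the count of members in white. Among the shortest genes 8 of 11 members and 44.4% of the others had a peak.

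Local input differed between loci. The 3 members on chromosome 8 were E2F5, CCNE2 and MCM4. Over their extended records the median local input was 13.1 at E2F5, 13.8 at CCNE2 and 4.00 at MCM4, against 5.00 at members on other chromosomes. Heights at E2F5 and CCNE2 therefore stand over a higher input than those elsewhere, and their median folds were 3.85 and 2.90. Chromosome 7, where 37.4% of 921 genes held a TSS-window peak, carries CDK6 and MCM7, which both had low peaks. Without chromosomes 7, X and Y, 43 of 51 members and 59.5% of the other genes held one.

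Further cell cycle genes, a list of 61 that are not members, were counted in the same way. A TSS-window peak was found at 53 of 61 (86.9%), with a median height of 58 fragments, and 11 of the 61 (18.0%) had one of at least 100. The tallest were those of NEK2, a centrosomal kinase, with 230 fragments (201 to 262; fold 14.2) at 5380 bp upstream, CDC27, a subunit of the anaphase-promoting complex, with 229 (200 to 261; fold 13.0) at 208 bp upstream, and PCNA, the sliding clamp of DNA polymerase, with 200 (173 to 230; fold 27.2) at 315 bp downstream. The NEK2 summit lies outside the 5 kb that its peak reaches into, and the NEK2 peak at 116 bp upstream had 95 fragments. The PCNA summit lies 6353 bp upstream of the canonical start, where the peak in the window had 60 fragments at 57 bp upstream. The 8 without a peak were CCNF, GINS1, GINS2, GINS3, GINS4, MAD1L1, NUF2 and TFDP1, the count resting on the record start. With the window around the canonical start, 56 of 61 held a peak, and CCNF, GINS2, GINS4, MAD1L1 and TFDP1 did not. GINS3, a subunit of a replication complex, then had 107 fragments at 812 bp downstream, GINS1 had 47 at 44 bp upstream and NUF2, a kinetochore protein, had 59 at 37 bp upstream.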

How the data were processed

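The authors aligned reads with Bowtie2 2.2.4 to GRCh38, called OTX2 peaks over input with MACS2 2.1.0.20140616 and masked blacklisted regions. The deposited pileup is a signal, the scaled fragment coverage at the summit. Fold enrichment, a deposited ratio, divides pileup plus 1 by local input plus 1. Each peak also has deposited −log10 values of its p and q. Of 137412 peaks, 137330 on chromosomes 1 to 22, X and Y were used. Heights in fragments are pileup divided by 0.735 (largest deviation from a whole number 0.0068). The ChIP library is deeper than the input, so the input limits the precision of fold enrichment.

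Gene records came from GENCODE release 44, whose GRCh37 file records the original GRCh38 exon positions, and no coordinate was converted. A peak counted with an overlap of at least 1 bp. The RefSeq promoter table held under 80% of the members, so shares of promoter words and GC content used GRCh37 sequence, a choice made after seeing the table. The overlap count was tested on simulated peaks. Members and gene lists were chosen with earlier results of these data known, and no test was run. In each role the 2 members with the tallest window peak, members without one and members whose call depends on the TSS used are given in full, with the 3 tallest other cell cycle genes. Alternatives were stricter q (−log10 of at least 5) and fold (at least 5), summit in the region, other TSS records and region sizes, leaving out chromosomes 7, X and Y, and dropping high local input. Heights by role, and peaks of the other cell cycle genes, at the canonical start were added after seeing the data. Scripts ran in Python 3.11.15 with numpy 2.4.6, pandas 2.3.3 and scipy 1.17.1, and plots were drawn with matplotlib 3.10.9.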

Additional observations from a re-analysis of the deposited data

How the results depend on the processing

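With a fold enrichment of at least 5, 29 members held a TSS-window peak instead of 45, and 35 of the other cell cycle genes instead of 53. Under the other settings members with a TSS-window peak numbered 39 to 49 and members with a locus peak 44 to 52, and the median height was 57 to 75 fragments under all settings. At the canonical TSS, CDK inhibitors were 6 of 7 with a peak, the median of the 4 CDK phosphorylation genes was 77.5 fragments, and CDK4, with 254, stood above CCNA2, with 215. Using any transcript TSS added BUB1, CDC25B, CDKN1B and CDKN2A, and a −log10 q of at least 5 removed CDK6, CDT1 and MCM5. The share of other protein-coding genes with a TSS-window peak was 52.0% at a −log10 q of at least 5, 38.4% at a fold of at least 5, 55.9% without peaks of high local input (at least 3 times the floor), 56.2% with the summit in the window, 66.6% for any transcript TSS, 58.4% for the canonical TSS, 46.9% within 1 kb on either side and 59.5% without chromosomes 7, X and Y. Their share with a locus peak was 86.0% at a −log10 q of at least 5, 80.2% at a fold of at least 5, 69.4% without extension, 94.1% with 50 kb and 89.6% without chromosomes 7, X and Y. Of 334 recomputed heights of single members, 24 left the interval of the main value. Settings under which a member lost its peak are not among them. All settings draw on the same deposited peaks, so most heights could not change. In the RefSeq promoter table, 0 of 41 members held an OTX2 word. That table lacks E2F5, which held one in the GRCh37 stretch, and its starts can differ from the record starts. The share over all promoters of that table was not counted. No paired analysis was possible because only 1 ChIP and 1 input were sequenced, so no spread between replicates is known.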
